A study of Homo sapiens with 12 samples.

Results

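The Notch pathway was described through 10 genes taken by their gene symbol, a list drawn up with earlier results of these data known. They were the receptors NOTCH1, NOTCH2 and NOTCH3, the ligands JAG1, JAG2 and DNER, the glycosyltransferase LFNG and the transcription factor genes HES1, HES4 and HEY1. Because of that choice, the shares of these genes that passed a test are given as a description. All 10 were among the 57152 gene symbols with values in the expression table. A mean of at least 1 TPM (a level scaled for transcript length and library total) over the 12 libraries was required for a test, which 9 of the 10 met and HEY1 did not.

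Libraries were made from A549, an established line of human lung adenocarcinoma, and from LB cells, whose labelled source is A549 and whose derivation the labels leave out. Each of 4 groups held 3 libraries. Vehicle was given to A549 (A549 DMSO) and to LB cells (LB DMSO), and the other two groups were LB cells under amiodarone alone or under amiodarone plus HPbCD. Amiodarone is a cationic amphiphilic antiarrhythmic drug and was given at 10 µM. HPbCD, hydroxypropyl-beta-cyclodextrin, is a ring of sugars that binds cholesterol and was in the medium at 10 mg/ml when cells were plated. After 24 h, drug or vehicle (0.1% DMSO) was added for another 24 h. HPbCD was present only together with amiodarone in the libraries analysed here, so its effect without the drug was not measured.

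Notch receptors are membrane proteins that signal between neighbouring cells. A ligand of the Jagged or Delta family on the adjacent cell pulls on the receptor, an ADAM protease and then the gamma-secretase complex cut it, and the freed intracellular part joins the DNA-binding protein RBPJ to switch on genes of the HES and HEY families. Fringe enzymes such as LFNG add sugars to the receptor and change which ligands it answers to. In the lung the pathway is known for choosing between secretory and ciliated fates in airway epithelium and for its part in alveolar formation.

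The library sums lay between 999449 and 999632 TPM, and because TPM keeps no read depth the counting error behind a value is unknown. Replicates correlated at 0.9846 to 0.9886 within groups over the 13968 genes tested. Mitochondrially encoded transcripts took 6.271 to 9.193% of TPM in A549 DMSO and 6.727 to 8.406% in LB DMSO. Their share was 5.613 to 8.494% with amiodarone and 5.384 to 6.73% with amiodarone plus HPbCD. The ranges of LB DMSO and of amiodarone plus HPbCD met only at their ends. The epithelial keratin and adhesion markers listed for the A549 type were all expressed, their summed level being 9620 to 10317 TPM in A549 DMSO and 4162 to 5230 TPM in the LB groups. The 10 alveolar type II markers summed to 22.28 to 22.68 TPM in A549 DMSO, 1363 to 1527 TPM in LB DMSO, 1166 to 1273 TPM with amiodarone and 1320 to 1579 TPM with amiodarone plus HPbCD. That gap between the lines lay in SFTPC, SFTPD, SFTPB and ABCA3. In A549 DMSO and LB DMSO, SFTPC averaged 0.46 and 590 TPM, SFTPD 0.247 and 300, SFTPB 0 and 247, and ABCA3 18.9 and 314. NAPSA averaged 2.5 and 2.96 TPM in the same order. The other 5 of the 10, SFTPA1, SFTPA2, LAMP3, NKX2-1 and SLC34A2, stayed below 1 TPM in every library. SFTPC, SFTPD, SFTPB and ABCA3 differed between the same libraries as the Notch genes, and their part in the Notch differences between the lines was not tested. All 6 endothelial markers stayed below 1 TPM in every library, with a summed level of at most 0.89 TPM, and the T cell marker CD3E was at 0 throughout. The labels do not state whether replicates came from separate cultures, and the p-values therefore reflect the variation among these libraries, which may be technical.

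Promoters were looked at first, because HES1 and HES4 belong to the same gene family and moved in opposite directions when HPbCD was added. Both sequences are the 250 bases before the RefSeq start of the gene on GRCh38.p14, written 5′ to 3′ on the gene's own strand. Capitals mark TGGGAA, the core that RBPJ is known to bind.
HES1 promoter: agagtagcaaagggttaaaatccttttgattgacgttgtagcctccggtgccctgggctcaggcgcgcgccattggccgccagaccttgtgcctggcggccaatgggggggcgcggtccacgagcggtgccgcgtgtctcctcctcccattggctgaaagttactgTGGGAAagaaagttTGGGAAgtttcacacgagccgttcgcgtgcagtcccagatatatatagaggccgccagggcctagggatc
HES4 promoter: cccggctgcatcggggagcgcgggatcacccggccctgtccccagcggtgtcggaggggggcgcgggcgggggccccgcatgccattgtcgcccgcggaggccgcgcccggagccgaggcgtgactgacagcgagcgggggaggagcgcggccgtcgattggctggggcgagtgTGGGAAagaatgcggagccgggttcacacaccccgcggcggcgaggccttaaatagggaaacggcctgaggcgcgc
The HES1 window is chr3:194135898-194136147 on the plus strand and the HES4 window is chr1:1000098-1000347 on the minus strand. GENCODE 29 places the gene starts inside these windows, at 194136145 for HES1 and 1000172 for HES4. Distances from the start therefore depend on the annotation, those of HES4 most.

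TGGGAA occurred at 2 places in the HES1 window, starting 84 and 70 bases before the start, and at 1 place in the HES4 window, starting 76 bases before it. On either strand, 20.9% of 34943 promoter windows of this length held it and 2.89% held it at 2 or more places. The longer form GTGGGAA, which contains TGGGAA, was in both windows and in 5.41% of all. The longest run of bases that the HES1 and HES4 windows shared was tgTGGGAAagaa, which was found in 6 of the 34943 windows. HES1 and HES4 are among those 6 by the way the run was picked. Runs shared by other pairs of windows were not searched, so how unusual this one is was not tested. Both windows also held attggctg on the printed strand, which contains CCAAT on the other strand, starting 102 bases before the HES1 start and 93 before the HES4 start. CCAAT itself was in 32.0% of all windows. The windows differed in CACNAG, the N box that HES proteins are known to bind, with 3 matches on either strand for HES1 and 0 for HES4, against 32.1% of all windows with at least 1. RefSeq promoter entries were matched for 8 of the 10 genes, the exceptions being DNER and HEY1. Outside the HES genes, TGGGAA was found in 1 of 2 LFNG windows and not in those of NOTCH1, NOTCH2, NOTCH3, JAG1 and JAG2. These matches describe letters in a window and were not tested as binding sites.

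The first comparison, LB DMSO with A549 DMSO, concerns the lines under vehicle. DNER, JAG2, HES1 and HES4 were higher in LB cells and NOTCH1, JAG1 and LFNG lower, so 7 of the 9 tested genes passed, where 32.4% of all tested genes did. The 4 that rose and 3 that fell compare with 14.2% and 18.2% of all tested genes, and 8 of the 10 genes had groups that did not overlap, against 43.7%. Their median absolute difference was 0.52 on the log2(TPM + 1) scale against 0.20 over all tested genes. DNER accounts for by far the largest of these differences, at 5.29 on the log2 scale, and NOTCH1 follows with -1.14. Throughout, a difference is of log2(TPM + 1), where low genes appear to change less than they do, with its SE and an adjusted p from limma over all tested genes, and a gene passed the test at an adjusted p under 0.05.

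Amiodarone was compared with vehicle in LB cells to find what the drug changed. LFNG and HES1 fell and the other 7 tested genes did not pass, that is 2 of 9 against 8.62% of all tested genes. In the background 4.9% rose and 3.72% fell, and 3 of the 10 genes had groups that did not overlap, against 30% of all tested genes. The median absolute difference of the 9 genes was 0.12, against 0.13 over all tested genes. The HES1 call rests on the libraries used, as given with its values.

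Adding HPbCD to amiodarone was compared with amiodarone alone. HES4 and JAG1 rose and NOTCH3, HES1 and LFNG fell, so 5 of the 9 tested genes passed, against 4.07% of all tested genes. The 2 that rose and 3 that fell compare with 2.71% and 1.36%, and 5 of the 10 genes had groups that did not overlap, against 25.1%. Their median absolute difference was 0.27 against 0.11. This comparison uses the same amiodarone libraries as the preceding one.

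Amiodarone plus HPbCD was also compared with vehicle in LB cells. JAG1 and HES4 were higher and NOTCH3, JAG2, LFNG and HES1 lower, so 6 of 9 passed, against 17.9% of all tested genes. The 2 that rose and 4 that fell compare with 10.1% and 7.81%, and 6 of the 10 genes had groups that did not overlap, against 39.1%. The 9 genes had a median absolute difference of 0.39 against 0.16. The LB DMSO libraries serve as the reference here and for amiodarone alone, so the comparisons among LB groups are not independent of each other.

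**Figure D1:**
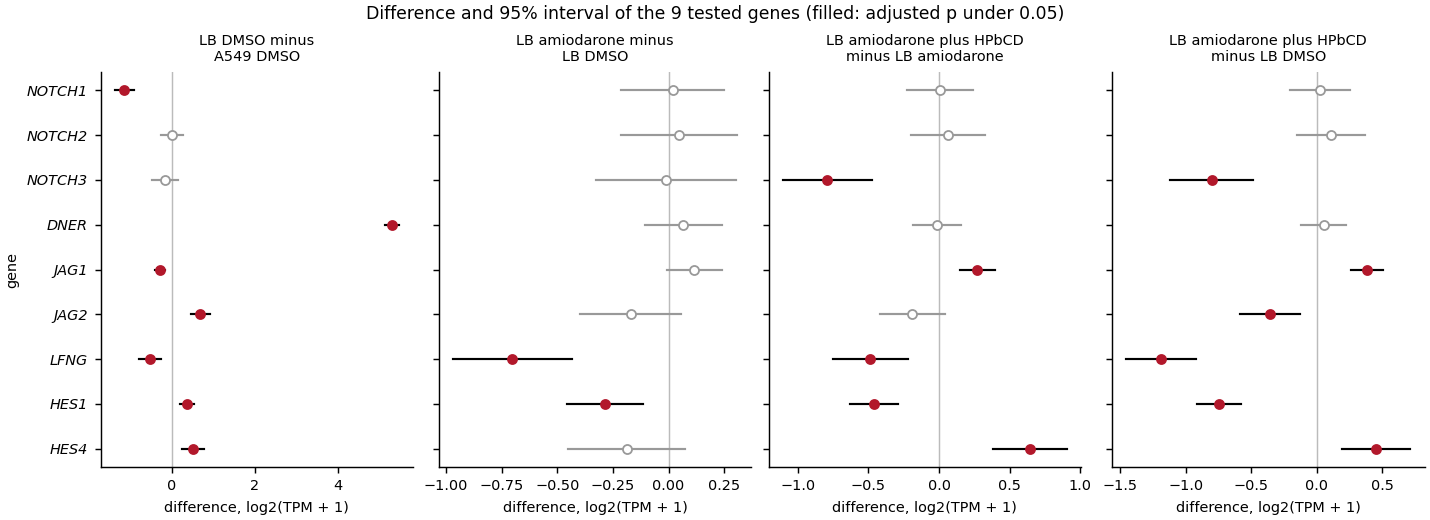
Difference on the log2(TPM + 1) scale with its 95% interval for the 9 tested genes, 1 panel per comparison, each with its own horizontal range; filled points passed the test at an adjusted p under 0.05. DNER stands at 5.29 in the comparison of LB DMSO with A549 DMSO, whose panel spans a wider range than the others, and HES1 and HES4 lie on opposite sides of 0 in the panels with HPbCD.

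Among the receptors, NOTCH1 (chromosome 9, 136494433 to 136545786, minus strand, GENCODE 29 on GRCh38) separated the lines. It stood at 9.48, 9.82 and 8.35 TPM in A549 DMSO and at 4.11, 3.15 and 3.64 TPM in LB DMSO. All A549 values lay above all LB values. The mean was 2.54-fold lower in LB DMSO (difference -1.14 ± 0.11 SE, adjusted p = 5.44e-06). Within LB cells it stayed near that level, at 3.73, 3.67 and 3.64 TPM with amiodarone and 3.70, 3.99 and 3.43 TPM with amiodarone plus HPbCD. The 95% intervals of these differences ran from -0.21 to 0.25 for amiodarone and from -0.23 to 0.24 for the addition of HPbCD, with overlapping groups.

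NOTCH3 (chromosome 19, 15159038 to 15200981, minus strand) had another pattern, with a low level only where HPbCD was present. It was 7.58, 6.66 and 10.29 TPM in A549 DMSO, 7.05, 7.56 and 6.74 TPM in LB DMSO and 8.34, 5.86 and 7.13 TPM with amiodarone, 3 groups that overlap. With amiodarone plus HPbCD it was 3.51, 3.67 and 3.78 TPM, below every other library. Its mean was 1.95-fold lower than with amiodarone alone (difference -0.79 ± 0.14 SE, adjusted p = 0.0095) and 1.95-fold lower than with vehicle (difference -0.80 ± 0.14 SE, adjusted p = 0.00233). These calls held with each library left out in turn.

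NOTCH2 (chromosome 1, 119911553 to 120069626, minus strand) did not pass in any comparison. Its group means were 10.8 ± 0.836 (SD) TPM in A549 DMSO, 10.8 ± 1.85 in LB DMSO, 11.2 ± 1.27 with amiodarone and 11.7 ± 0.915 with amiodarone plus HPbCD (n = 3 each), and the groups overlapped in all 4 comparisons. NOTCH2 shares near-identical sequence with the NOTCH2NL genes, so its estimated level is less certain than those of the other receptors. NOTCH2NLA, listed in the table, was at 7.27 ± 0.871, 8.92 ± 1.34, 8.56 ± 0.221 and 11 ± 0.871 TPM in the same order of groups. NOTCH4, the receptor best known from endothelium, lay between 0.1 and 0.61 TPM in every library and was not tested.

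Because TPM is per length, receptor levels can be summed. The summed level of the receptors was 28.7 ± 1.09 TPM in A549 DMSO, 22.1 ± 2.12 in LB DMSO, 22.2 ± 2.44 with amiodarone and 19.5 ± 0.852 with amiodarone plus HPbCD (SD, n = 3 each). NOTCH1 made up 32.2 ± 3.64% of that sum in A549 DMSO and 16.4 ± 0.64% in LB DMSO. NOTCH3 made up 31.9 ± 2.21% with amiodarone and 18.8 ± 1.45% with amiodarone plus HPbCD, where NOTCH2 held 60.1 ± 2.36%. NOTCH2 had the highest mean share in every group, from 37.7 ± 2.7% in A549 DMSO upward. These sums and shares were not tested.

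**Figure D2:**
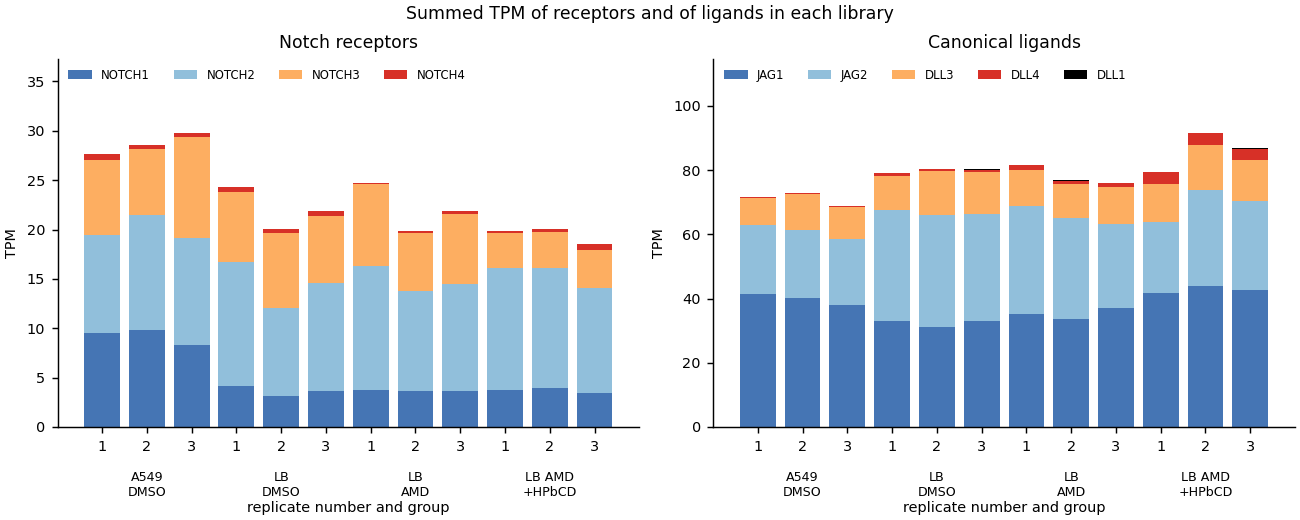
Stacked TPM of the Notch receptors (left) and of the canonical ligands (right) in each of the 12 libraries, ordered by group and replicate number. The NOTCH1 segment is larger in the A549 libraries than in the LB libraries, the NOTCH3 segment is smallest in the 3 libraries with HPbCD, and the JAG1 and JAG2 segments are on average closest to each other in LB DMSO.

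Of the ligands, DNER (chromosome 2, 229357629 to 229714558, minus strand) differed most between the lines. DNER is a transmembrane protein with EGF-like repeats, known from neurons and described as a noncanonical Notch ligand, since it lacks the receptor-binding domain of the Jagged and Delta ligands. It stood at 0.54, 0.76 and 0.44 TPM in A549 DMSO and at 62.13, 59.30 and 60.39 TPM in LB DMSO. The lines did not overlap, and the mean was 104-fold higher in LB cells (difference 5.29 ± 0.08 SE, adjusted p = 2.61e-13). Neither treatment moved it past the test, with 64.04, 58.72 and 68.13 TPM under amiodarone (adjusted p = 0.681) and 61.98, 62.69 and 64.10 TPM under amiodarone plus HPbCD (adjusted p = 0.957 against amiodarone). The interval of the HPbCD difference was -0.19 to 0.16. The neuroendocrine markers INSM1 and NEUROD1 stayed below 1 TPM in every library. The summed level of the whole list of 7 neuroendocrine markers was 3.47 to 5.86 TPM in A549 DMSO and 7.31 to 9.15 TPM in LB DMSO. Its part in the DNER difference was not tested.

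JAG1 and JAG2, the canonical Jagged ligands, went in opposite directions. JAG1 (chromosome 20, 10637684 to 10673999, minus strand) was 41.55, 40.18 and 38.03 TPM in A549 DMSO and 33.03, 31.28 and 33.08 TPM in LB DMSO. All A549 values were above those of LB DMSO (difference -0.29 ± 0.06 SE, adjusted p = 0.0017). Under amiodarone it was 35.27, 33.66 and 36.95 TPM, above each LB DMSO library, but the difference of 0.12 ± 0.06 SE did not pass (adjusted p = 0.24). Under amiodarone plus HPbCD it was 41.83, 43.80 and 42.63 TPM, above every other library. It rose by 0.27 ± 0.06 SE against amiodarone (adjusted p = 0.019) and by 0.39 ± 0.06 SE against vehicle (adjusted p = 0.000521). The call against amiodarone was lost without LB amiodarone replicate 1 or 2, or without any of the 3 libraries with HPbCD, over a range of 0.0161 to 0.0756 among the libraries left out.

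JAG2 (chromosome 14, 105140981 to 105168824, minus strand) was 21.29, 21.19 and 20.50 TPM in A549 DMSO and 34.69, 34.83 and 33.20 TPM in LB DMSO. It was 1.63-fold higher in LB DMSO with no overlap (difference 0.68 ± 0.11 SE, adjusted p = 0.000333). Amiodarone gave 33.46, 31.44 and 26.42 TPM and amiodarone plus HPbCD gave 22.17, 30.13 and 27.73 TPM. These 2 groups overlap, and neither the amiodarone difference (-0.17 ± 0.11 SE, adjusted p = 0.368) nor that on adding HPbCD (-0.19 ± 0.11 SE, adjusted p = 0.381) passed. Both together against vehicle did, at -0.36 ± 0.11 SE (adjusted p = 0.0336). That call was lost without any of the LB DMSO libraries or without replicate 1 or 3 of the group with HPbCD (range 0.0183 to 0.123), with no filter on low values (0.0808), after median-of-ratios scaling (0.0506) and in a fit of only the compared groups (0.055). JAG1 and JAG2 thus held 56.1 ± 1.57% and 29.5 ± 0.338% of canonical ligand TPM in A549 DMSO, 40.6 ± 1.51% and 42.8 ± 1.28% in LB DMSO, and 49.8 ± 2.52% and 30.9 ± 2.64% with amiodarone plus HPbCD.

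The Delta ligands are on the wider pathway list, and all canonical ligands on it were described whatever their values. DLL4 met the minimum mean of 1 TPM only through the group with HPbCD, where it is high, so its calls are read as a description. With no filter, its adjusted p was 0.0144 between the lines, 0.00157 on adding HPbCD and 6.23e-05 for both agents against vehicle. DLL4 (chromosome 15, 40929333 to 40939073, plus strand), a ligand best known from endothelium, was 0.33, 0.26 and 0.27 TPM in A549 DMSO and 1.06, 0.68 and 0.69 TPM in LB DMSO. It was 1.41, 1.16 and 1.14 TPM with amiodarone and 3.63, 3.64 and 3.63 TPM with amiodarone plus HPbCD. The libraries with HPbCD lay above all others, 2.94-fold higher than amiodarone alone in the mean (difference 1.05 ± 0.14 SE, adjusted p = 0.000947) and 4.49-fold higher than vehicle (difference 1.36 ± 0.14 SE, adjusted p = 2.78e-05). Amiodarone alone did not pass (0.31 ± 0.14 SE, adjusted p = 0.194). The difference between the lines passed (0.49 ± 0.14 SE, adjusted p = 0.0156), but not without LB DMSO replicate 1 (0.0639) nor after quantile normalization (0.231). DLL4 remained a minor ligand transcript, at 4.24 ± 0.303% of canonical ligand TPM with HPbCD. DLL3, a ligand known to inhibit Notch within its own cell, was at 9.86 ± 1.37, 12.4 ± 1.74, 11.1 ± 0.52 and 12.8 ± 1.16 TPM (SD, n = 3) over the groups in the same order and did not pass in any comparison of the full set. Between the lines its difference was 0.30 ± 0.12 SE with overlapping groups (adjusted p = 0.0671 in limma). It passed after median-of-ratios scaling (0.0482), after quantile normalization (0.0448), with array weights (0.0439), and without A549 DMSO replicate 2 (0.0344) or LB DMSO replicate 1 (0.0200). DLL1 was at 0 to 0.18 TPM.

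**Figure D3:**
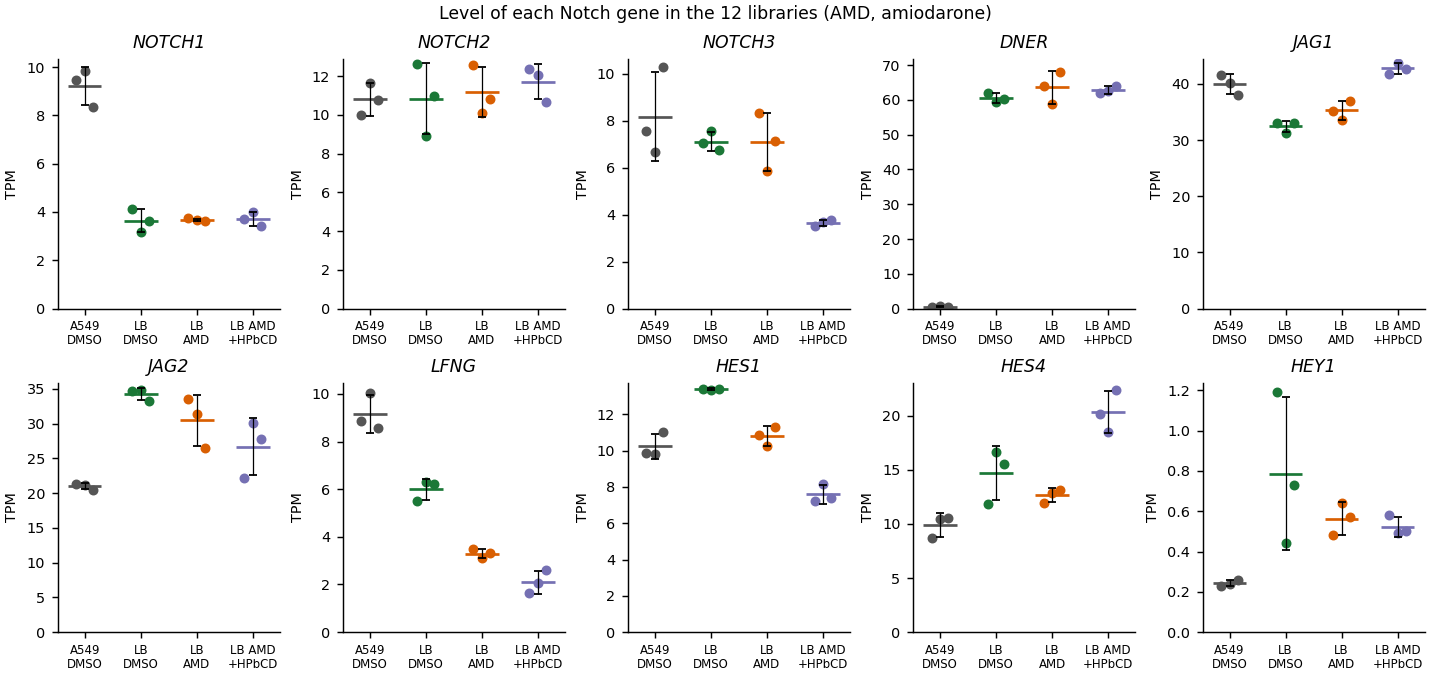
TPM of the 10 genes in each library: points are libraries, horizontal lines the group mean and whiskers 1 SD (n = 3), with linear axes from 0. DNER is at 0.44 to 0.76 TPM in the A549 libraries and near 60 TPM in the LB libraries, and LFNG is lower in each group than in the group to its left.

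LFNG (chromosome 7, 2512529 to 2529177, plus strand) encodes lunatic fringe, which lengthens O-fucose sugars on Notch receptors. It was 8.86, 10.05 and 8.56 TPM in A549 DMSO, 5.49, 6.31 and 6.20 TPM in LB DMSO, 3.48, 3.10 and 3.32 TPM with amiodarone and 1.64, 2.05 and 2.59 TPM with amiodarone plus HPbCD. No 2 of these groups overlapped, and the order of the groups was the same as the order just given. It was lower in LB DMSO than in A549 DMSO by -0.54 ± 0.12 SE (adjusted p = 0.00491) and lower with amiodarone than with vehicle by -0.70 ± 0.12 SE (adjusted p = 0.00409). The addition of HPbCD gave -0.49 ± 0.12 SE (adjusted p = 0.0468), a call that was lost without any of 10 of the 12 libraries, the exceptions being A549 DMSO replicate 2 and replicate 3 of the group with HPbCD (range 0.0291 to 0.172), and in 7 of 12 other settings (up to 0.116). Against vehicle, amiodarone plus HPbCD was 2.87-fold lower (difference -1.19 ± 0.12 SE, adjusted p = 3.70e-05), and this held with each library left out. Of the other fringe genes, MFNG lay at 2.01 ± 1.1 TPM in A549 DMSO and 0.43 to 0.633 TPM in the means of the LB groups. It was too low to be tested, as its mean fell below 1 TPM. RFNG, at 31.3 ± 1.14 and 33 ± 1.12 TPM in A549 DMSO and LB DMSO, did not pass.

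Of the target genes, HES1 (chromosome 3, 194136145 to 194138732, plus strand), a repressor that keeps progenitors undifferentiated and is the best known Notch target, was 9.88, 9.80 and 11.01 TPM in A549 DMSO. It was 13.41, 13.33 and 13.41 TPM in LB DMSO, 10.85, 10.24 and 11.32 TPM with amiodarone and 7.22, 8.17 and 7.38 TPM with amiodarone plus HPbCD. The LB groups did not overlap each other, and with amiodarone the level overlapped that of A549 DMSO. HES1 was higher in LB DMSO than in A549 DMSO (difference 0.36 ± 0.08 SE, adjusted p = 0.00363). It fell with the addition of HPbCD to amiodarone (-0.46 ± 0.08 SE, adjusted p = 0.00609) and was 1.76-fold lower with both than with vehicle (-0.75 ± 0.08 SE, adjusted p = 4.15e-05). Those 3 calls held with each library left out in turn. The fall with amiodarone alone, -0.29 ± 0.08 SE (adjusted p = 0.0417), was lost without any of the LB DMSO or LB amiodarone libraries and without replicate 1 or 3 of the group with HPbCD (range 0.0375 to 0.131). It was also lost with no filter (0.0562) and in a fit of only the compared groups (0.0625).

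HES4 (chromosome 1, 998962 to 1000172, minus strand), a HES family gene that mice lack, did not follow HES1. It was 8.66, 10.47 and 10.57 TPM in A549 DMSO, 11.86, 16.65 and 15.49 TPM in LB DMSO and 11.90, 12.89 and 13.14 TPM with amiodarone. With amiodarone plus HPbCD it was 20.12, 18.52 and 22.36 TPM, above all 9 other libraries. It was 1.48-fold higher in LB DMSO than in A549 DMSO (difference 0.52 ± 0.12 SE, adjusted p = 0.00571) and did not pass with amiodarone (-0.19 ± 0.12 SE, adjusted p = 0.391). It rose 1.61-fold with HPbCD over amiodarone alone (0.64 ± 0.12 SE, adjusted p = 0.0109, 0.0552 without replicate 3 of the group with HPbCD). Against vehicle the rise of 0.45 ± 0.12 SE (adjusted p = 0.0211) was lost without LB DMSO replicate 1 (0.0785), without replicate 1 (0.0581) or replicate 3 (0.085) of the group with HPbCD, and with no filter (0.0538). When HPbCD was added to amiodarone, HES1 thus fell and HES4 rose, and the windows printed above share the 12-base run around TGGGAA.

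HEY1 (chromosome 8, 79764010 to 79767863, minus strand), a target whose protein pairs with HES proteins, was 0.23, 0.24 and 0.26 TPM in A549 DMSO. It was 1.19, 0.44 and 0.73 TPM in LB DMSO, 0.48, 0.64 and 0.57 TPM with amiodarone and 0.58, 0.49 and 0.50 TPM with both agents. All LB libraries lay above all A549 libraries, and the LB groups overlapped each other. An exact two-sided permutation test of LB DMSO against A549 DMSO gave p = 0.1, the smallest that 3 against 3 libraries allow. With no filter on low values its difference of 0.50 ± 0.13 SE had an adjusted p of 0.0217 in limma, and none of its differences among LB groups passed (adjusted p from 0.462 to 1).

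**Figure D4:**
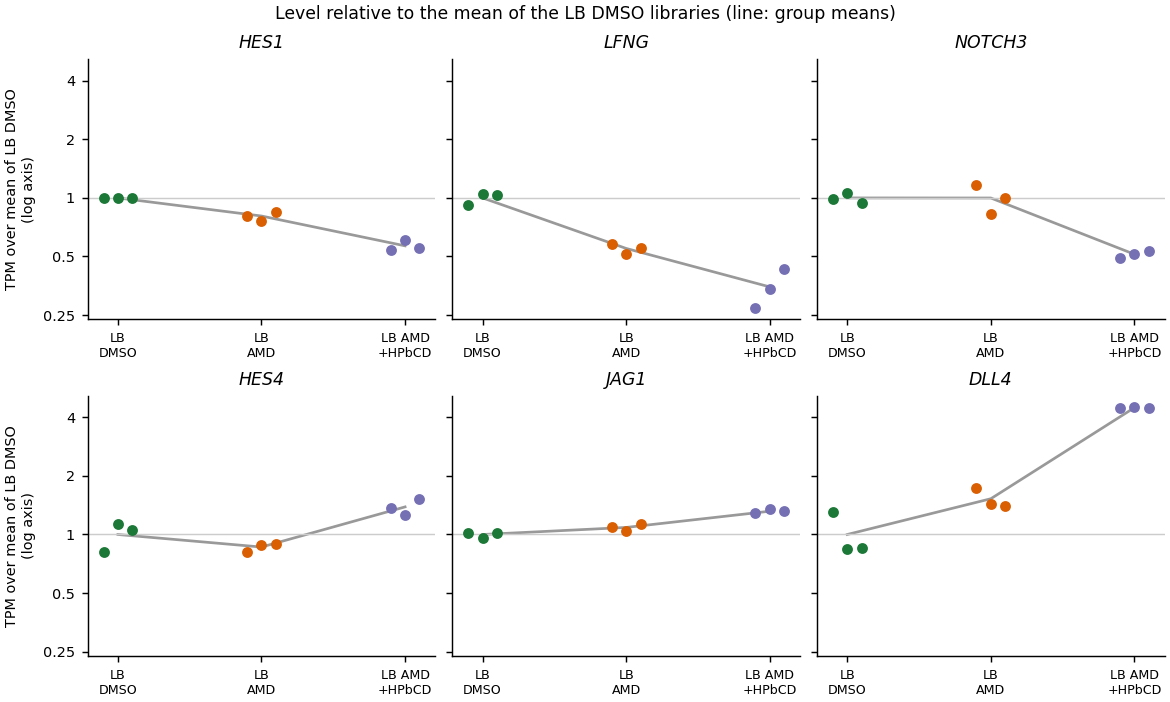
TPM of 6 genes in the LB libraries divided by the mean of LB DMSO, on a log axis; points are libraries, the line joins the group means and AMD is amiodarone. HES1, LFNG and NOTCH3 end below 1 and HES4, JAG1 and DLL4 above 1 with amiodarone plus HPbCD, where DLL4 reaches 4.49.

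Markers of other cell types were set beside these results. With HPbCD, the summed level of 6 ciliated-cell markers was 9.04 to 11.89 TPM against 18.26 to 20.01 TPM with amiodarone and 19.65 to 22.45 TPM with vehicle. TPPP3 supplied most of it, and the defining markers FOXJ1 and DNAI1 stayed below 1 TPM in every library. PIFO went the other way from vehicle, averaging 0.723 TPM with vehicle, 1.85 with amiodarone and 1.51 with both agents. The 6 airway secretory markers summed to 7.14 to 12.69 TPM with HPbCD, 7.37 to 10.3 with amiodarone, 8.21 to 13.71 in LB DMSO and 19.21 to 23.7 in A549 DMSO. The airway basal markers summed to 5.78 to 10 TPM in A549 DMSO and 1.77 to 3.2 in LB DMSO. The 7 fibroblast markers summed to 6.56 to 7.43 TPM with HPbCD and 10.8 to 16.23 TPM with amiodarone, and to 3.8 to 6.43 TPM in A549 DMSO and 11.33 to 11.77 TPM in LB DMSO, 5 of them staying below 1 TPM everywhere. The 6 alveolar type I markers summed to 384.56 to 493.42 TPM in A549 DMSO and 184.22 to 219.67 TPM in LB DMSO, with PDPN and HOPX at 0 in both. The 7 leukocyte markers summed to 7.05 to 7.24 TPM in A549 DMSO and 3.43 to 5.34 TPM in LB DMSO. The part of these lists in the Notch results was not tested. In bulk RNA, a change in the share of cells that express a gene and a change of its RNA per cell cannot be told apart.

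The rest of the pathway was read from a list of 81 other genes found in the table, 65 of which were tested. In LB DMSO against A549 DMSO, 14 rose and 14 fell, which is 43.1% of those tested beside 32.4% of all genes. The list's median difference was -0.05 and that of all tested genes -0.04. Of the 28 calls, 18 held in every alternative that tested the gene, NEURL1B being untested at a minimum mean of 5 TPM. DLL4 is among the 28 and was tested only through the group with HPbCD. CNTN1, a cell adhesion molecule described as a noncanonical Notch ligand, was 13.8-fold lower (146 ± 15.8 to 10.6 ± 0.846 TPM, adjusted p = 7.28e-10). DLK2, an inhibitory Delta-like protein, rose from 5.78 ± 1.1 to 10.9 ± 0.896 TPM (adjusted p = 0.000161). The gamma-secretase subunit gene NCSTN rose from 53.4 ± 2.75 to 81.3 ± 2.41 TPM (adjusted p = 1.58e-05), while the sheddase gene ADAM10 fell from 152 ± 5.69 to 134 ± 1.18 TPM (adjusted p = 0.0046). NEURL1B, a ubiquitin ligase for ligands, fell 2.54-fold to 1.14 ± 0.0115 TPM (adjusted p = 0.000163). The coactivator gene MAML1 fell (15.9 ± 0.48 to 12 ± 0.884 TPM, adjusted p = 0.00885) and RBPJ itself was 14.8 ± 0.427 and 14.3 ± 2.43 TPM and did not pass. Among corepressors TLE4 rose 1.65-fold and TLE3 and CTBP2 fell 1.43-fold and 1.33-fold. Among further targets HES7 and ID3 rose 1.95-fold and 1.65-fold and SOX9 fell 1.69-fold, with adjusted p of at most 0.00685 for these 6 genes.

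In the same comparison of lines, 5 further genes described here passed in the full set of libraries but not without single ones. The sheddase gene ADAM17 fell 1.27-fold (adjusted p = 0.0222), lost without A549 DMSO replicate 1 or 3 or LB DMSO replicate 2 (range 0.00634 to 0.0886). Of the turnover genes, NUMBL rose 1.21-fold (adjusted p = 0.0343) and DTX3 rose 1.35-fold (adjusted p = 0.0384). Both were lost without A549 DMSO replicate 2 or 3 or any LB DMSO library, and DTX3 also without LB amiodarone replicate 3, with adjusted p of up to 0.126 and 0.143. DTX4 fell 1.83-fold (adjusted p = 0.0148), lost without A549 DMSO replicate 1 (0.0616). The acetyltransferase gene KAT2B fell 1.59-fold (adjusted p = 0.0207), lost without A549 DMSO replicate 3 or LB DMSO replicate 2 (range 0.0142 to 0.0847).

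With amiodarone, 2 pathway genes rose and 3 fell, 7.69% of those tested beside 8.62% of all genes. The transcription factor gene BHLHE40 rose from 61.3 ± 2.99 to 90.7 ± 6.24 TPM (adjusted p = 0.000268), a call held in every alternative. The other 4 were lost when single libraries were left out. HES6, which opposes HES1, rose 1.61-fold (adjusted p = 0.0166) and was lost without replicate 1 or 2 of LB DMSO or replicate 2 or 3 of LB amiodarone (range 0.00327 to 0.0677). ID1 fell 1.26-fold (adjusted p = 0.0125), lost without LB DMSO replicate 2 (0.0551) or 3 (0.0531). NUMBL, related to the Notch inhibitor NUMB, fell 1.34-fold (adjusted p = 0.0131), lost without LB DMSO replicate 2 (0.0562) or LB amiodarone replicate 3 (0.0569). TLE3 fell 1.41-fold with overlapping groups (adjusted p = 0.043), lost without any of 9 of the 12 libraries, the exceptions being A549 DMSO replicate 2, LB DMSO replicate 2 and LB amiodarone replicate 3 (range 0.00657 to 0.152). Apart from LFNG, no tested gene of the cleavage, nuclear complex or glycosylation roles passed, against 2, 1 and 0 at an unadjusted limma p under 0.05.

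On adding HPbCD to amiodarone, 4 other pathway genes passed, 6.15% of those tested beside 4.07% of all genes. DLL4, given above, is 1 of the 4 and was tested only through the group with HPbCD, so this share is a description. At a minimum mean of 5 TPM, DLL4 was not tested and the other 3 were called. That was among 57 pathway genes tested, against 586 called of 10415 genes. DTX3L met this higher minimum only through the group with HPbCD, so that count is a description too. Its means were 5.54 TPM in A549 DMSO, 4.55 in LB DMSO and 4.55 with amiodarone. Each of the 4 calls held in every alternative that tested the gene. DTX3L, of the Deltex family of ubiquitin ligases and best known for its work with PARP9 in DNA damage and interferon responses, rose from 4.55 ± 0.546 to 10.8 ± 1.62 TPM (difference 1.08 ± 0.14 SE, adjusted p = 0.00118). The corepressor gene TLE1, whose protein is recruited by HES proteins, rose from 60.6 ± 1.41 to 76.1 ± 3.23 TPM (0.32 ± 0.05 SE, adjusted p = 0.00451). SOX9, a progenitor transcription factor of the lung, fell from 4.55 ± 0.352 to 2.73 ± 0.193 TPM (-0.57 ± 0.09 SE, adjusted p = 0.00451). Of the 9 protease and gamma-secretase genes 0 passed, with 3 at an unadjusted limma p under 0.05.

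With amiodarone plus HPbCD against vehicle, 7 pathway genes rose and 7 fell, 21.5% of those tested beside 17.9% of all genes. DLL4 is among these 14 and was tested only through the group with HPbCD. Of the 14 calls, 9 held in every alternative that tested the gene, DLL4 being untested at a minimum mean of 5 TPM. DLL4, DTX3L and TLE1 were again higher, as was BHLHE40 (95.4 ± 6.95 TPM with both agents, 1.56-fold, adjusted p = 4.69e-05). ADAM10 was higher (152 ± 1.64 TPM, 1.13-fold, adjusted p = 0.00825). SOX9 (1.80-fold, adjusted p = 0.000372), ID1 (254 ± 16.6 TPM, 1.46-fold, adjusted p = 0.00019), NUMBL (35.3 ± 3.15 TPM, 1.41-fold, adjusted p = 0.00237) and HDAC1 (69.2 ± 4.74 TPM, 1.23-fold, adjusted p = 0.0033) were lower. The progenitor gene SOX9 stood at 4.92 ± 0.0379 TPM with vehicle. The protease gene ADAM17 rose 1.27-fold (adjusted p = 0.0424), lost without any of 9 of the 12 libraries, the exceptions being replicate 2 of A549 DMSO, of LB amiodarone and of the group with HPbCD (range 0.0259 to 0.155). MIB2, a ubiquitin ligase for ligands, fell 1.45-fold (adjusted p = 0.0119), lost without replicate 1 of the group with HPbCD (0.0549). TLE3 fell 1.39-fold (adjusted p = 0.0306), lost without replicate 1 or 3 of LB DMSO or any library with HPbCD (range 0.0036 to 0.116). The nuclear complex genes, RBPJ included, gave 0 calls, with 2 at an unadjusted limma p under 0.05.

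**Figure D5:**
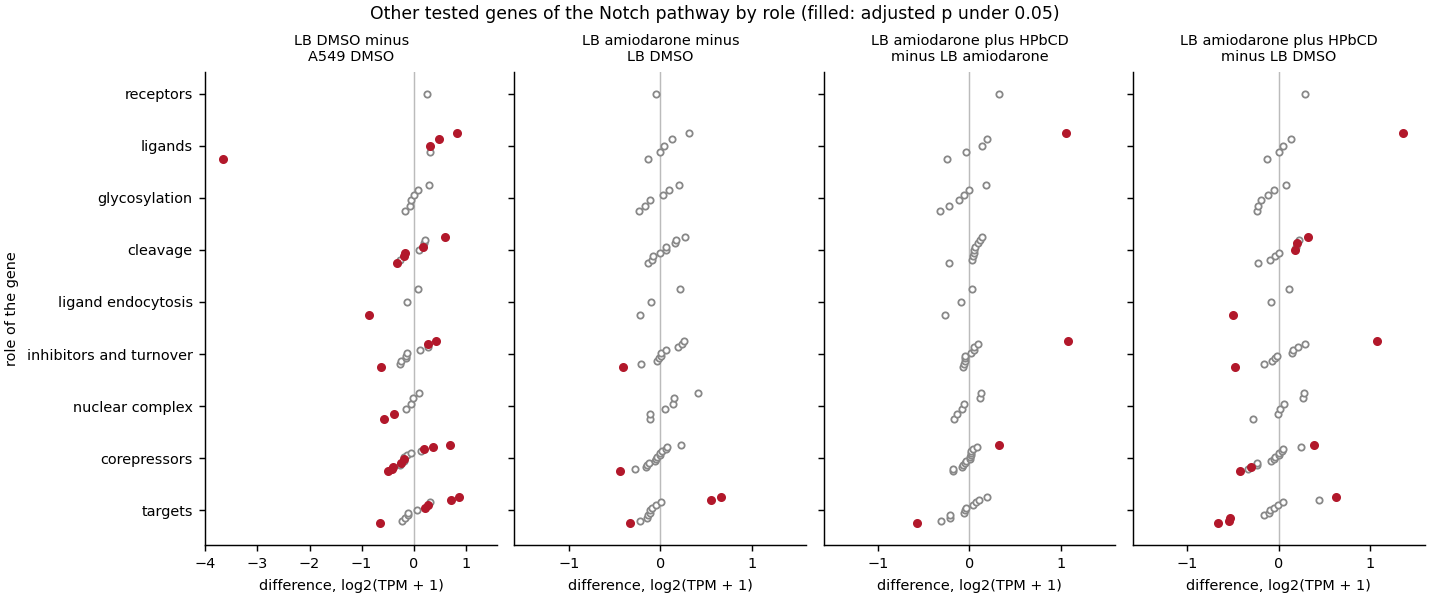
Difference on the log2(TPM + 1) scale of each of the 65 other tested pathway genes by role, 1 panel per comparison; filled points passed the test at an adjusted p under 0.05, and the height within a role only spreads the points. The A549 panel spans a wider range to show CNTN1, and the ligand point farthest to the right in both panels with HPbCD is DLL4.

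The genes whose levels over the 12 libraries were most like each member are given as a description, since the points share 4 groups. For DNER these were SFTPC, HGF and SFTPD (Pearson r of 0.998 each), all near 0 in A549 DMSO and expressed in LB cells. Within the 9 LB libraries the r of DNER with the same genes was -0.58, 0.41 and -0.51, so the likeness over 12 libraries is that of the contrast between lines. NOTCH1 was closest to EFNB2 and UPK1B, genes of an ephrin ligand and a uroplakin (r of 0.993 and 0.9925 over 12 libraries, and 0.85 and 0.69 over the 9 LB libraries). HES1 was closest to B4GAT1, a glycosyltransferase gene (0.973, and 0.979 over the 9 LB libraries). LFNG was closest to EPN1 and COPS6 (0.983 each), NOTCH3 to LONRF2 (0.950), JAG1 to ITPR3 (0.946), JAG2 to PLEKHG6 (0.965) and HES4 to BRF2 (0.960).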

How the data were processed

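Total RNA of 12 libraries, 3 in each of 4 groups by line and treatment, was made into stranded mRNA libraries, per the labels' protocols. The deposited table holds TPM, which the authors made with the tools STAR 2.7.3a and RSEM 1.3.1 on GRCh38, per the submitters' processing notes. Which annotation release was used is not given in the sources used. RSEM divides reads shared between genes by estimate, so copies such as NOTCH2 and NOTCH2NL are uncertain. TPM keeps no depth, so no count model was used. Of 57189 rows, 57152 hold values. Columns without a sample numbered 0.

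Expression was analysed as log2(TPM + 1), with 1 as the pseudocount. The 13968 genes averaging 1 TPM or more were fitted with limma 3.58.1 (R 4.3.3) with a mean-variance trend and all 4 groups in 1 model with 8 residual degrees of freedom. The two-sided p of each gene was adjusted (Benjamini-Hochberg) per comparison and judged at 0.05. The fit was tested on simulated data. Positions are from GENCODE 29, promoters from RefSeq (GRCh38.p14). The pathway list had 83 genes, 81 in the table, 1 under an older symbol.

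The 10 members, the lists and the tests were chosen with earlier results of these data known. Named were the members, DLL1, DLL3, DLL4 and NOTCH4, and per comparison and role up to 3 other pathway genes with the largest change among those past the test. Some genes of the lists are counted in totals but not reported here by name. ADAM10 between the lines, MFNG, RFNG, RBPJ, NOTCH2NLA and the markers were named outside that rule, after values were seen, and so was the motif search. Likeness was Pearson's r of log2(TPM + 1), passing over noncoding genes. Tried as alternatives were a pseudocount of 0.1 or 5, a minimum mean of 5 TPM or none, 3 other scalings, 3 variance models, only the compared groups, a replicate block, and omission of each library.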

Additional observations from a re-analysis of the deposited data

How the results depend on the processing

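No called difference of the 10 genes changed direction under any of the 12 settings or 12 libraries left out. Leaving out 1 library moved the counts of all genes called from 4525 to 3661-4467 (LB DMSO against A549 DMSO), from 1204 to 630-1493 (amiodarone), from 568 to 282-827 (HPbCD added) and from 2495 to 1702-2841 (both against vehicle). The counts of members called, 7, 2, 5 and 6 in that order, were 7 to 7, 1 to 2, 3 to 5 and 4 to 6, and those of other pathway genes, 28, 5, 4 and 14, were 21 to 29, 2 to 5, 4 to 5 and 9 to 17. For amiodarone the members called numbered 1 with no filter, 1 in a fit of only the compared groups and 1 with the replicate block, HES1 being the gene lost each time, and the pathway genes called numbered 3 with no filter. Among alternatives 46 of 868 values of the members lost their call and 1, HEY1 with no filter, gained it. The cause of these losses was not tested.

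Differences near 0 changed sign, none of them called. NOTCH1 gave -0.026 after quantile normalization for amiodarone, and -0.0026 with mitochondrial genes removed and -0.0036 with array weights for HPbCD added. With 1 library out it ranged from -0.057 to 0.093 for amiodarone, -0.036 to 0.049 for HPbCD added and -0.051 to 0.10 for both. NOTCH2 between the lines gave 0.029 after median-of-ratios scaling, 0.048 after quantile normalization and 0.018 with array weights, and with 1 library out -0.11 to 0.12. It ranged from -0.074 to 0.15 for amiodarone and -0.0092 to 0.22 for both. NOTCH3 ranged from -0.28 to 0.00048 between the lines and -0.12 to 0.10 for amiodarone, where array weights gave 0.0026. DNER on adding HPbCD gave 0.0048 after median-of-ratios scaling and ranged from -0.069 to 0.036, and DLL3 for both agents ranged from -0.062 to 0.12.

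Replicate numbers were not treated as pairs in the main fit. Same-numbered deviations correlated weakly, at -0.0273 to 0.212 and mostly above 0, and in no comparison were all above 0.1. With the replicate block 4581, 1198, 606 and 2558 genes were called, and members called were 7, 1, 4 and 6. DLL3 between the lines passed with the block (adjusted p = 0.0378). Libraries correlated best with their own number in 5, 4, 4 and 3 of 6 cases. No scaling moved the median of all genes by over 0.1.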
